A study of Mus musculus with 28 samples.

Results

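The 38 genes described here encode the enzymes, regulators and carriers of glucose breakdown, pyruvate use and glycogen turnover. They were chosen by name from the gene rows of a raw count table, and all 38 were found among its 45513 rows. The table holds ventricular myocardium of 28 male C57BL/6 mice, 1 RNA sequencing library per mouse. Surgery at 6 weeks of age was either a staged removal of most renal tissue (5/6 nephrectomy, a model of chronic kidney disease, CKD) or a sham operation. On day 7 each mouse received 200 µl of culture medium by mouth, either with the oxalate-degrading gut bacterium Oxalobacter formigenes (Oxf) or without it (vehicle). Every mouse ate chow with 1% hydroxyproline, which is turned into oxalate in the body, plus 0.5% calcium. The libraries came from sham-vehicle (10 mice), CKD-vehicle (6 mice), sham-Oxf (5 mice) and CKD-Oxf (7 mice). The design names 10 mice per group, and those not among these 28 were not analysed here. Hearts were perfused with saline before freezing, and the hour of sacrifice and the colonisation status of each mouse are not given in the sources used here.

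Glycolysis turns glucose into pyruvate in the cytosol. Hexokinases trap glucose as glucose 6-phosphate, phosphofructokinase commits it to breakdown, and the bifunctional PFKFB enzymes set the level of its activator, fructose 2,6-bisphosphate. Pyruvate either becomes lactate or enters mitochondria through the carrier MPC1/MPC2 and is oxidised by the pyruvate dehydrogenase complex, which its kinases switch off and its phosphatases switch on. The adult heart takes most of its energy from fatty acids, but it also oxidises glucose and lactate and keeps a glycogen store. Many of the steps have a muscle form and a more widely expressed form, such as Pfkm and Pfkl, Eno3 and Eno1, or Pgam2 and Pgam1.

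The stretches before the RefSeq start sites of 4 of the genes (GRCm38.p6, 250 bases, 5′ to 3′ on the strand of the gene) are printed here. Pgam1 is shown as the 1 gene of the 38 past the threshold in the main comparison of gavages, a call that was not stable (below). Pfkfb3 is shown as a gene that ran against most others among libraries, and Ldha and Slc16a1 as genes of lactate handling with an E-box. Ldha and Pfkfb3 have 2 start sites each in the table, and the one with an E-box is printed. The other Ldha stretch held neither motif marked here, and the other Pfkfb3 stretch held ACGTG but no E-box. Capitals mark the E-box CACGTG, which clock and growth factors of the basic helix-loop-helix class can bind, and the core ACGTG of the hypoxia response element on either strand.
Pgam1, chr19:41911621-41911870, + strand: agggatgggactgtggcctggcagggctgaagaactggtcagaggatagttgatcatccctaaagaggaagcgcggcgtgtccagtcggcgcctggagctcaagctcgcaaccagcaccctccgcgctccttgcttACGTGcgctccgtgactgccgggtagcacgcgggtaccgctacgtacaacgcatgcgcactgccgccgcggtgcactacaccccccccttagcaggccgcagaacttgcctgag
Pfkfb3, chr2:11502091-11502340, - strand: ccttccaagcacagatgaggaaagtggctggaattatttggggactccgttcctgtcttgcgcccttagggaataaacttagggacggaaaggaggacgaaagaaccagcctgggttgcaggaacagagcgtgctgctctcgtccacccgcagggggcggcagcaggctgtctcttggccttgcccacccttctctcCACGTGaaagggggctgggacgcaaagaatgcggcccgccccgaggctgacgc
Ldha, chr7:46845554-46845803, + strand: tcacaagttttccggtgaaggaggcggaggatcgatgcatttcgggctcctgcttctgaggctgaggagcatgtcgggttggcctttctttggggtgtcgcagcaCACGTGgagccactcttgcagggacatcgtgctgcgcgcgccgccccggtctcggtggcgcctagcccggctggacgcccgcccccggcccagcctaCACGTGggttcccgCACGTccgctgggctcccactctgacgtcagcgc
Slc16a1, chr3:104638414-104638663, + strand: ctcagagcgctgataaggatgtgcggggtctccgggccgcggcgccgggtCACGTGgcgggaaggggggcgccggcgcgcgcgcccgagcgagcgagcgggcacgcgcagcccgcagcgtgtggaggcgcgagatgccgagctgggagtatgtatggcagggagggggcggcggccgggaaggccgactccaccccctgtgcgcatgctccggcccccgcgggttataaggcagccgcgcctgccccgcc

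Promoters were found for 37 of the 38 genes, with Pdp1 as the exception, and the 37 genes had 57 start sites. In the window from 250 bases before to 50 bases after the start, CACGTG occurred in 6 of the 57 promoters, which is 10.5%, against 7.15% of all 32851 promoters in the RefSeq table. The genes with it were Pfkm, Pfkfb2, Pfkfb3, Ldha, Slc16a1 and Pdp2. The shorter ACGTG, which every CACGTG contains, occurred in 40.4% of the 57 promoters and in 19.6% of all promoters. The nuclear receptor motif AGGTCA was in 17.5% against 16.3%. The D-box TTATGTAA, the motif of Dbp, Tef and Hlf, was in 0 of the 57 windows against 0.938% of all promoters. These are matches of letters on both strands, given as a description, and promoters of 1 gene can overlap.

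The libraries held 19.8 to 65.4 M counts (M for mega), with a median of 38.1 M, and all 38 genes passed the filter on low counts. Sham-Oxf replicate 1 was the shallowest and had 15879 genes with a count, against 27128 or more in every other library. The 10 ventricular cardiomyocyte markers were above 0 in all libraries. Their sum was 17882 to 48078 CPM, counts scaled to a common library size. Heart muscle was thus present in every library, but this does not test whether it was ventricular alone. The sum of 5 atrial markers ran from 62.8 to 2775 CPM, and skeletal muscle markers were high in mice 906 and 913 (below). The share of counts in the 7SL RNA genes Rn7s1 and Rn7s2, a noncoding RNA of the signal recognition particle, ran from 1.83% to 20.98%. The sham-vehicle libraries had a median share of 10.1% and the CKD-vehicle libraries one of 14.0%. With Oxf the medians were 2.702% after sham surgery and 7.73% in CKD. The clock score, the mean log2 CPM of clock genes around Dbp and Per1 minus that of genes around Arntl and Npas2, had medians of 2.06, 0.77, 4.03 and 3.32 in sham-vehicle, CKD-vehicle, sham-Oxf and CKD-Oxf. Both measures thus differed between the groups. In bulk tissue, fewer cells of a type and less RNA per cell cannot be told apart.

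In the sham-vehicle ventricle the highest levels per length of all annotated exons belonged to muscle forms and to Ldhb. Mean CPM per kilobase, with the length taken as the union of all annotated exons, was 216 ± 77.9 for Aldoa (SD, n = 10), 184 ± 104 for Ldhb, 111 ± 52.4 for Eno3, 110 ± 30.0 for Pygm, 92.2 ± 37.8 for Pgam2 and 87.6 ± 23.2 for Pfkm. Aldoa is the muscle aldolase, Ldhb the heart subunit of lactate dehydrogenase, and Pygm the muscle glycogen phosphorylase. The ranges of mean ± SD overlapped between neighbours among these 6. The order depends on the length used: Gapdh, the glyceraldehyde 3-phosphate dehydrogenase, had 75.6 ± 27.7 with the union of exons but 220.1 with the principal transcript, level with Ldhb at 221. The lowest were Aldoc, the brain aldolase, at 0.085 ± 0.095 CPM per kilobase, and Pdk3, a pyruvate dehydrogenase kinase, at 0.99 ± 0.22. Pdk3 was listed at 0 in sham-Oxf replicate 1 and at 1.06 to 4.21 CPM in the other 27 libraries. Aldoc was listed at 0 counts in some libraries of 3 groups and never exceeded 0.813 CPM, so its fold changes rest on very few counts.

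**Figure D1:**
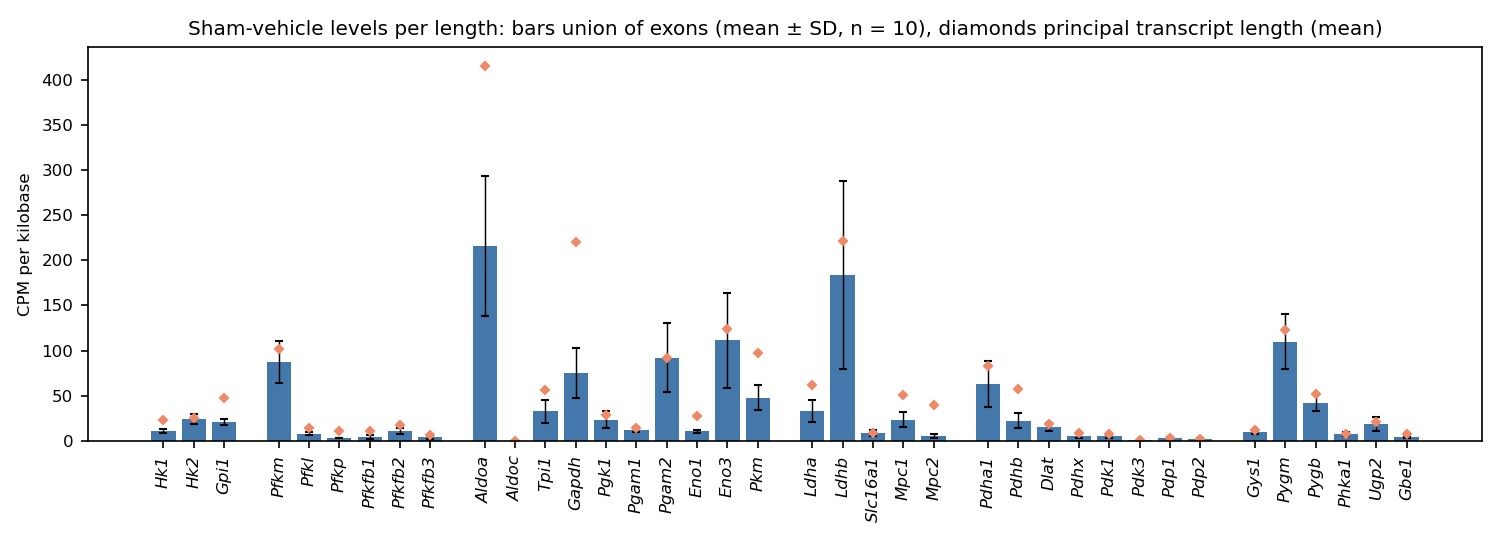
Mean level in sham-vehicle (CPM per kilobase, n = 10) of the 38 genes, with bars for the union of exons, whiskers for the SD across mice and diamonds for the mean with the principal transcript length. Aldoa and Ldhb stand highest (216 and 184 with the union of exons), and Aldoc is near 0.

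The muscle form exceeded the general form in every library for several steps. The ratio of Pfkm to Pfkl per kilobase had a median of 11.1 over the 28 libraries (range 8.89 to 17.0). Pgam2 to Pgam1 had a median of 7.57 (4.34 to 10.5), and Eno3 to Eno1 one of 11.2 (4.49 to 21.3). Ldhb, whose product favours lactate oxidation, stood above Ldha in all libraries, at a median of 5.40 (3.49 to 7.60). Gene length mattered for these ratios: with the principal transcript length the medians were 7.19, 6.78, 4.69 and 3.47. Near-identical copies mattered too: with the counts of Pgam1-ps1 and Pgam1-ps2 added to Pgam1, and those of Eno1b to Eno1, the Pgam2 ratio had a median of 4.85 and the Eno3 ratio one of 7.31 (union of exons). Hk2, the insulin-responsive hexokinase, was at 2.23 times Hk1 with the exon union but at 1.09 times with the principal transcript. The ratios overlapped between the 4 groups, with Ldhb to Ldha at medians of 5.17 (sham-vehicle), 5.56 (CKD-vehicle), 4.55 (sham-Oxf) and 5.43 (CKD-Oxf).

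CKD-vehicle against sham-vehicle asks what CKD does when no bacterium is given. None of the 38 genes (0) passed an adjusted p under 0.05 by edgeR, against 2 of the 24273 genes tested (0.00824%). DESeq2 and limma voom also called 0, beside 0.119% and 0.383% of all genes. At an unadjusted p under 0.05, 4 of the 38 were higher and 0 lower, beside 2.09% and 2.37% of all genes. The values nevertheless leaned one way: 34 of 38 log2 fold changes were positive, with a median of 0.31, where all genes tested had a median of -0.03 and 44.4% were positive. CKD-vehicle also had the higher 7SL share, the lower clock score and the higher cardiomyocyte marker sum (31094 to 48078 CPM against 17882 to 34709), and their part in the lean was not tested beyond the fits with covariates below. By step, the 5 lactate and carrier genes had the highest median (0.40), then the pyruvate dehydrogenase genes (0.35). The segment from aldolase to pyruvate kinase (0.33), the glycogen genes (0.32), hexokinases with Gpi1 (0.24) and the phosphofructokinase group (0.005) came next. Single genes ran from 0.37 to 0.56 for lactate and carriers and from 0.12 to 0.46 for pyruvate dehydrogenase. They ran from -1.35 to 0.51 for aldolase to pyruvate kinase and from 0.12 to 0.43 for glycogen. The order of these overlapping steps is not resolved.

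The smallest p in this comparison belonged to Slc16a1, which encodes the lactate carrier MCT1 (chromosome 3). It ran from 23.3 to 68.9 CPM in sham-vehicle with a median of 32.9, and from 35.5 to 91.7 CPM in CKD-vehicle with a median of 53.2. The groups overlapped over much of their range, and the highest value was that of CKD-vehicle replicate 2. The log2 fold change was 0.56 ± 0.24 (SE, edgeR adjusted p 0.955). Hk1, the general hexokinase, was at 63.2 to 112 CPM in sham-vehicle and at 99.1 to 144 CPM in CKD-vehicle, with medians of 90.7 and 108. Its log2 fold change was 0.31 ± 0.14, and that of Dlat, the acetyltransferase core of the pyruvate dehydrogenase complex, 0.43 ± 0.20, both with an edgeR adjusted p of 0.955.

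In mice given Oxf, the same surgery contrast (CKD-Oxf against sham-Oxf) likewise had 0 of the 38 genes past the threshold by edgeR, DESeq2 or limma voom. Of all genes, edgeR and limma voom called 0% and DESeq2 0.412%. No member of the set reached an unadjusted p under 0.05 there (0 higher, 0 lower), beside 8.23% of all genes, and 36 of 38 log2 fold changes were positive (median 0.20, all genes 0.05). The smallest p belonged to Hk1 (0.29 ± 0.16, edgeR adjusted p 0.668), Gys1, the muscle glycogen synthase (0.22 ± 0.15, edgeR adjusted p 0.782), and Gbe1, the glycogen branching enzyme (0.18 ± 0.15, edgeR adjusted p 0.835). Averaged over gavage, surgery gave 0 called genes of the 38 and 0 of all genes (0%) by edgeR, and 0 of the 38 by DESeq2 (0.466% of all genes) and limma voom (0.519%). There were 4 at an unadjusted p under 0.05, all higher in CKD, beside 10.6% of all genes. Hk1 was at 0.30 ± 0.10 (edgeR adjusted p 0.325), Gys1 at 0.24 ± 0.10 (0.391) and Pdk1, a pyruvate dehydrogenase kinase, at 0.31 ± 0.15 (0.453).

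Oxf against vehicle, averaged over both kinds of surgery, gave the 1 call of edgeR among the 38 genes. It was Pgam1, which was lower with Oxf. The share called among all 24273 genes was 2.81% (681 genes), and in the lower direction 1.54%, so 1 of 38 is near the background. DESeq2 called 3 of the 38, beside 8.79% of all genes, and limma voom called 12, beside 22.0%. A filter of 10 counts or more in each library gave 2, beside 10.1% of all genes. No member passed with no filter (0.366% of all genes), with the 7SL share in the fit (0.544%) or with the clock score in it (0%). Pgam1 (ENSMUSG00000011752, chromosome 19, 41911923 to 41918660) encodes the general phosphoglycerate mutase, which moves the phosphate of 3-phosphoglycerate. The sham-Oxf mice had 21.7, 17.4, 21.4, 14.3 and 16.4 CPM, and the sham-vehicle mice 15.5 to 35.0 CPM with a median of 23.5. CKD-Oxf mice ran from 14.9 to 31.0 CPM with a median of 18.6, and CKD-vehicle mice from 22.9 to 41.2 CPM with a median of 28.04. Each sham-Oxf value lay within the sham-vehicle range or below it, and in CKD only CKD-Oxf replicate 4, at 31.0 CPM, reached into the CKD-vehicle range. The log2 fold change was -0.49 ± 0.13 (SE, edgeR adjusted p 0.0380). It was -0.42 ± 0.18 in sham mice (adjusted p 0.322) and -0.56 ± 0.18 in CKD mice (adjusted p 0.222).

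The call of Pgam1 was not stable. Leaving out the 28 libraries in turn, it held 15 times, with adjusted p from 0.0036 to 0.0813 and log2 fold changes from -0.57 to -0.44. It ended without sham-vehicle replicate 4 or 7, CKD-vehicle replicate 1, 2 or 3, sham-Oxf replicate 2, 4 or 5, or CKD-Oxf replicate 1, 2, 3, 5 or 6. With the 7SL share in the fit Pgam1 was at -0.34 ± 0.12 (adjusted p 0.171), and with the clock score in it at -0.03 ± 0.18 (adjusted p 0.986). The near-identical pseudogene Pgam1-ps2 had 7.25 to 18.04 CPM in sham-vehicle and a log2 fold change of -0.51 ± 0.16 (edgeR adjusted p 0.0633), so reads of the pair may be divided and the level of Pgam1 is uncertain.

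**Figure D2:**
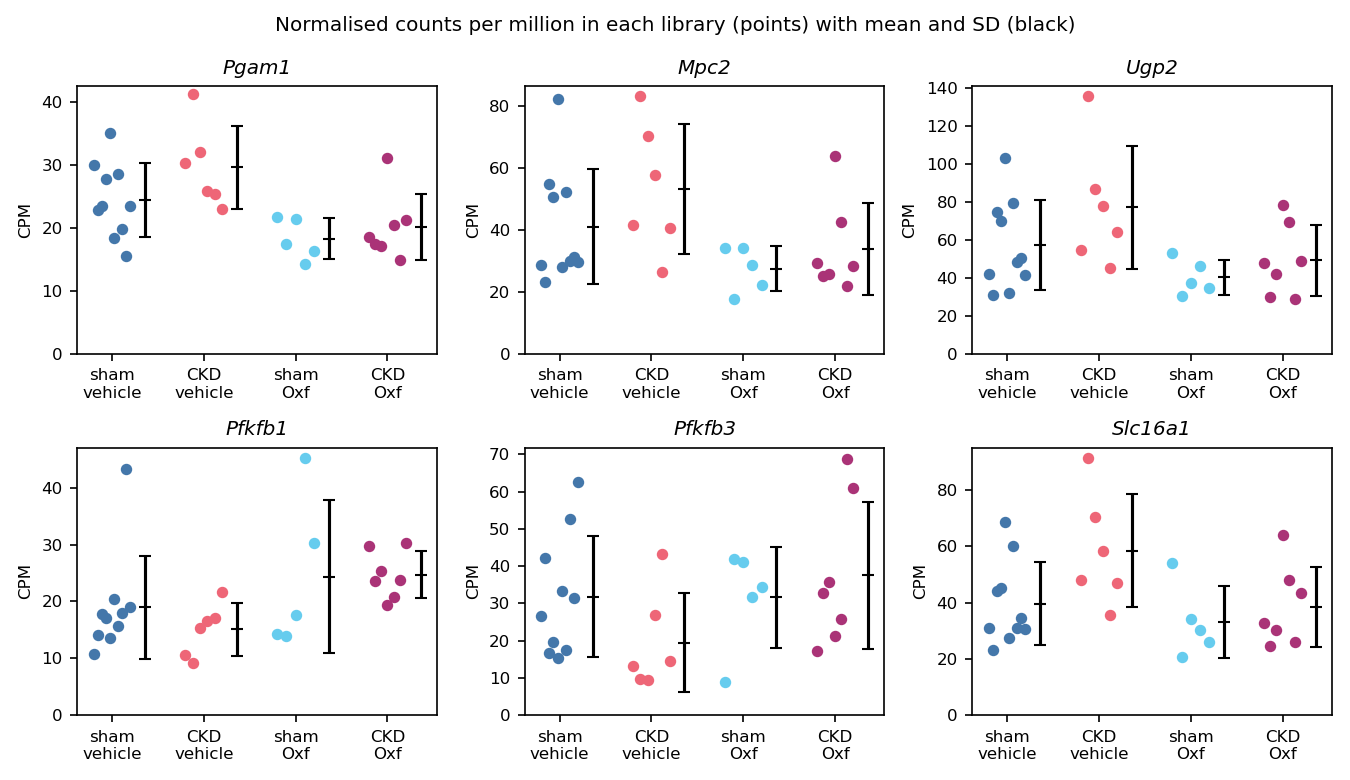
Level in CPM of selected genes in each mouse (points) of the 4 groups, with the group mean and SD. For Pgam1 the 5 sham-Oxf mice sit between 14.3 and 21.7 CPM and 6 of the 7 CKD-Oxf mice at or below 21.2, while the CKD-vehicle mice start at 22.9.

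The next smallest p for Oxf averaged over surgery belonged to Mpc2, Ugp2 and Pfkfb1, and none of them passed. Mpc2, a subunit of the mitochondrial pyruvate carrier, was at 34.1, 17.7, 34.1, 28.7 and 22.2 CPM in sham-Oxf and at 23.2 to 82.2 CPM in sham-vehicle (median 30.5). In CKD-Oxf it ran from 21.7 to 63.7 CPM (median 28.3) and in CKD-vehicle from 26.5 to 83.3 CPM (median 49.6). All groups overlapped, and the log2 fold change was -0.62 ± 0.21 (edgeR adjusted p 0.0804). Ugp2, which makes the UDP-glucose used for glycogen, was at 53.1, 30.5, 36.9, 45.9 and 34.5 CPM in sham-Oxf against 30.7 to 103 CPM in sham-vehicle (median 49.2). Its CKD-Oxf values were 29.0 to 78.3 CPM (median 47.7) and its CKD-vehicle values 45.0 to 136 CPM (median 70.8), with a log2 fold change of -0.58 ± 0.20 (edgeR adjusted p 0.0877). Leaving out CKD-Oxf replicate 4, the CKD-Oxf library with the highest 7SL share (20.6%), gave 7 called genes, all lower: Ldha, Mpc2, Pdp1, Pgam1, Pgk1, Slc16a1 and Ugp2. Of all genes 13.9% passed in that fit. Without CKD-vehicle replicate 5 there were 3 (Mpc2, Pgam1 and Ugp2), beside 7.83% of all genes. Without sham-vehicle replicate 9 there were 2 (Pgam1 and Pfkfb1), beside 3.54%. Pgk1 and Ldha also have pseudogene copies with counts, so their levels are uncertain. In sham-vehicle the copy Pgk1-rs7 had a mean of 38.3 CPM against 52.9 CPM for Pgk1. The copy Ldha-ps2 had a mean of 3.40 CPM there. Its log2 fold change for Oxf averaged over surgery was -0.88 ± 0.23 (edgeR adjusted p 0.0402).

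Pfkfb1, a PFKFB form known from liver and muscle, differed in sign from most of the set. It was at 10.7 to 43.4 CPM in sham-vehicle (median 17.4), 9.14 to 21.7 CPM in CKD-vehicle (median 15.96), and 19.4 to 30.3 CPM in CKD-Oxf (median 23.7). In sham-Oxf the 5 values were 14.3, 14.0, 17.7, 45.3 and 30.4 CPM. The highest value in each sham group stood well above the rest, and the CKD groups overlapped only between 19.4 and 21.7 CPM. The log2 fold change was 0.54 ± 0.19 for Oxf averaged over surgery (edgeR adjusted p 0.1004) and 0.71 ± 0.28 in CKD mice (edgeR adjusted p 0.295). When the clock score entered the fit, the value in CKD mice was -0.16, so its direction turned. Over the whole set, 32 of 38 log2 fold changes for Oxf were negative, with a median of -0.23 against 0.003 for all genes. At an unadjusted p under 0.05, 8 were lower and 1 higher, beside 11.5% of all genes in each direction. The means of 3 marker sums were lower with Oxf after both kinds of surgery. The cardiomyocyte sum was 19734 to 29075 CPM in sham-Oxf and 23864 to 41281 CPM in CKD-Oxf. All 5 atrial markers were above 0 in every library, and their sum ran from 205 to 2775 CPM in sham-vehicle, 1056 to 2583 CPM in CKD-vehicle, 62.8 to 2068 CPM in sham-Oxf and 101 to 1975 CPM in CKD-Oxf. The 5 fibroblast markers, also above 0 throughout, had mean sums of 506 and 479 CPM in the vehicle groups (sham, CKD) and of 389 and 365 CPM in the Oxf groups, with overlapping ranges (243 to 777 CPM in all). These sums do not give cell numbers, and their part in the lean was not tested.

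In CKD mice, CKD-Oxf against CKD-vehicle, 0 of the 38 genes passed by edgeR and by DESeq2. Of all genes, edgeR called 8 (0.0330%) and DESeq2 0.783%. Limma voom with sample weights called 9 (2 higher and 7 lower), beside 15.0% of all genes. At an unadjusted p under 0.05 edgeR had 2 higher and 4 lower, beside 6.89% and 6.20% of all genes. Of the 38 log2 fold changes 33 were negative, with a median of -0.27 against 0.03 for all genes. Besides Pgam1 and Pfkfb1, the 3 smallest p included Ugp2 at -0.65 ± 0.28 (edgeR adjusted p 0.330). Without CKD-Oxf replicate 4, 1 gene passed, Pgam1 at -0.70 (edgeR adjusted p 0.0358), beside 3.83% of all genes.

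In sham mice, sham-Oxf against sham-vehicle, 0 of the 38 passed by edgeR, DESeq2 and limma voom. Of all genes, edgeR called 0%, DESeq2 0.540% and limma voom 0.140%. At an unadjusted p under 0.05, 0 were higher and 1 lower, beside 12.6% of all genes. Of the members, 32 of 38 log2 fold changes were negative (median -0.16, all genes -0.04). Without the 3 doubtful libraries (mice 906, 913 and 921) the median was -0.31. After Pgam1, the smallest p belonged to Mpc2 (-0.59 ± 0.29, edgeR adjusted p 0.410) and Pdp1, a pyruvate dehydrogenase phosphatase (-0.51 ± 0.26, edgeR adjusted p 0.412). The interaction of surgery and gavage had 0 of the 38 genes past the threshold by edgeR, DESeq2 and limma voom, each of which also called 0% of all genes. At an unadjusted p under 0.05 it had 0 of the 38, beside 3.55% of all genes. Its smallest p belonged to Pfkfb3 (0.95 ± 0.57), Aldoc (1.605 ± 1.22, on very few counts) and Pdp2, the other phosphatase (-0.33 ± 0.27), each with an edgeR adjusted p of 1.00. These comparisons share libraries: CKD-vehicle enters both the CKD comparison with vehicle and the Oxf comparison in CKD, so opposite signs in the pair are not independent.

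**Figure D3:**
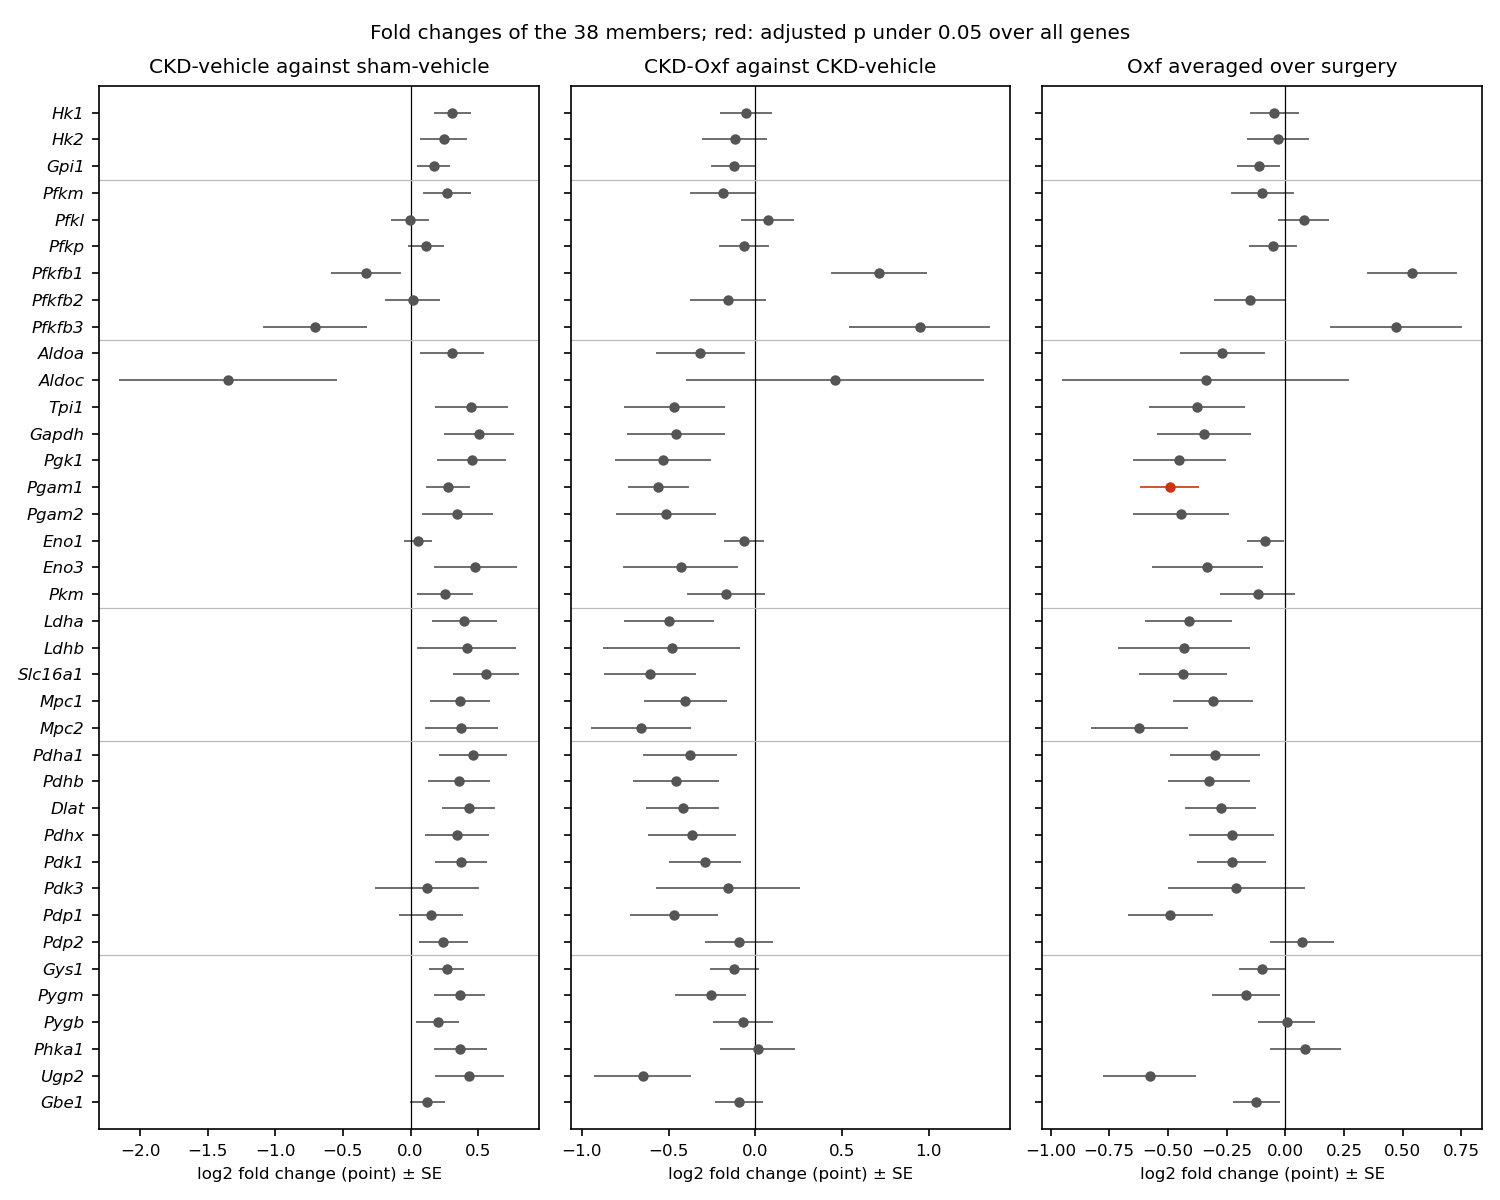
Log2 fold change (point) and SE (bar) of each of the 38 genes in 3 comparisons, with red points for an edgeR adjusted p under 0.05. Most points lie right of 0 for CKD-vehicle against sham-vehicle (34 of 38) and left of 0 for CKD-Oxf against CKD-vehicle (33 of 38), and the only red point is Pgam1 for Oxf averaged over surgery (-0.49 ± 0.13).

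The genes moved together from library to library within the groups. Over the 703 pairs of the 38 genes, the median correlation of deviations from the group mean was 0.70 (28 libraries, log2 scale), with 75.8% of pairs positive, as a description of libraries that also share depth and quality. The same value was not computed for other genes, so whether it is particular to this set is not known. The deviations ran with the 7SL share. A slope on the log2 7SL share within groups, fitted after the pattern was seen, was past the edgeR threshold for 29 of the 38 genes, 27 with a positive and 2 with a negative slope. Among all genes tested the share was 37.7%, with 16.7% positive and the rest negative. The 29 held between 26 and 29 when each library was left out. The part of RNA quality or library makeup in these slopes was not tested.

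The steepest positive slopes belonged to Ldhb, with 0.58 ± 0.08 per doubling of the 7SL share (edgeR adjusted p 6.5e-06), and Eno3, with 0.49 ± 0.07 (edgeR adjusted p 8.4e-06). Among vehicle mice, Ldhb was at 132 to 618 CPM after sham surgery (median 204) and at 160 to 590 CPM in CKD (median 382). Among Oxf mice it was at 89.5 to 411 CPM after sham surgery (median 192) and at 111 to 583 CPM in CKD (median 225). All 4 ranges overlapped. All 5 lactate and carrier genes, 9 of the 10 genes from aldolase to pyruvate kinase, 7 of the 8 pyruvate dehydrogenase genes, 4 of the 6 glycogen genes, 3 of the 6 phosphofructokinase genes and 1 of the 3 in the hexokinase group passed. The 9 that did not were Hk1, Gpi1, Pfkp, Pfkfb1, Pfkfb2, Eno1, Pdk3, Gys1 and Phka1, where Phka1 is a regulatory subunit of phosphorylase kinase.

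**Figure D4:**
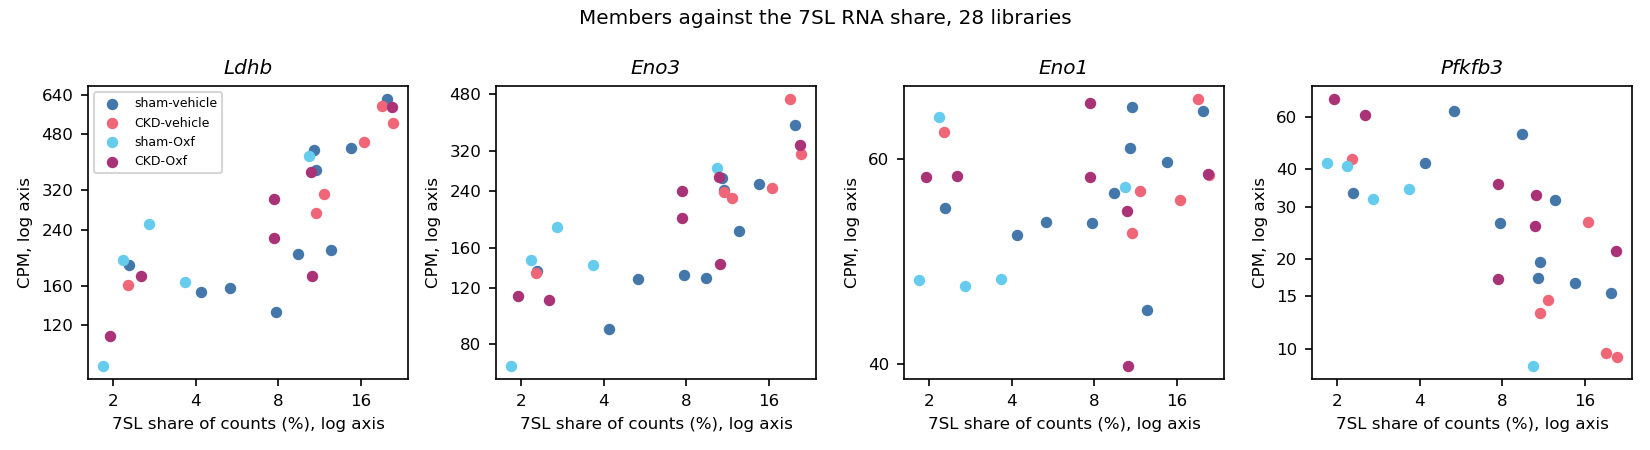
CPM of selected genes (log axis) against the 7SL share of counts in percent (log axis) in the 28 libraries, coloured by group. Ldhb and Eno3 are higher in libraries with a higher 7SL share, Pfkfb3 is lower, and Eno1 shows little slope (0.01 ± 0.04).

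Pfkfb3, the inducible PFKFB form with high kinase activity, had a slope of -0.57 ± 0.09 (edgeR adjusted p 4.1e-05), where 34 of the 38 slopes were positive. Pfkfb1 also had a negative estimate, at -0.07 ± 0.10 (edgeR adjusted p 0.616). Pfkfb3 ran from 15.4 to 62.7 CPM in sham-vehicle (median 29.0), from 9.41 to 43.2 CPM in CKD-vehicle (median 13.8) and from 17.2 to 68.7 CPM in CKD-Oxf (median 32.9). The sham-Oxf mice had 8.77, 42.0, 41.0, 31.8 and 34.4 CPM, and replicate 1, with a 7SL share of 10.3%, was the low one. In CKD-vehicle, replicate 5 with 43.2 CPM had the lowest 7SL share of its group, 2.26%, and replicate 3 with 9.41 CPM the highest, 20.98%. The 6 adipose markers, each at 0 in some library, also differed. They summed to 117 CPM in CKD-vehicle replicate 5, 6.62 CPM in CKD-vehicle replicate 3 and 0 CPM in sham-Oxf replicate 1. The sum was 188 CPM in CKD-Oxf replicate 6, with 68.7 CPM of Pfkfb3. It was 2.44 CPM in sham-vehicle replicate 9, with 31.6 CPM of Pfkfb3. The part of fat in these values was not tested. The log2 fold change of Pfkfb3 was 0.95 ± 0.41 for CKD-Oxf against CKD-vehicle (edgeR adjusted p 0.332) and -0.01 ± 0.40 for sham-Oxf against sham-vehicle (edgeR adjusted p 0.997). With the 7SL share and the clock score both in the fit, the sham value was -1.38 ± 0.26 (edgeR adjusted p 0.0295). It was the 1 call in that setting, beside 0.119% of all genes. Aldoc had the other negative slope on the 7SL share that passed the threshold, on very few counts.

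Most slopes on the clock score were negative, but none passed the threshold by edgeR. Within groups, 0 of the 38 genes passed for a slope on the score by edgeR, where 41 of all genes did (0.169%). Of the 38 slopes 34 were negative, with a median of -0.17. All genes tested had a median of 0.03, and 57.5% were positive. At an unadjusted p under 0.05, 2 had a positive and 14 a negative slope (42.1% of the 38), beside 11.1% of all genes. Among all genes, 1265 had a positive and 1441 a negative slope at that p. DESeq2 and limma voom each called 3, beside 0.643% and 0.853% of all genes. The smallest p belonged to Pfkfb3 (0.58 ± 0.14 per unit, edgeR adjusted p 0.103), Pfkfb1 (0.38 ± 0.09, edgeR adjusted p 0.115) and Hk1 (-0.21 ± 0.06, edgeR adjusted p 0.160). Mouse numbers ran in separate blocks: 901 to 910 (sham-vehicle), 913 to 920 (CKD-vehicle), 921 to 929 (sham-Oxf) and 931 to 940 (CKD-Oxf). Group and number thus cannot be told apart across groups. Within sham-vehicle, earlier results of these data showed clock genes following the number. The clock score was 0.84 in mouse 901 and 3.53 in mouse 910. With mouse number in sham-vehicle as the regressor, 0 of the 38 passed by edgeR, DESeq2 and limma voom. Of all genes, edgeR called 0.0165%, DESeq2 0.0700% and limma voom 0.0247%. In this regression 1 gene reached an unadjusted p under 0.05 with a positive slope, beside 0.886% of all genes, and 0 did so with a negative one. That was Pfkfb1, at 0.13 ± 0.04 log2 units per mouse number, followed by Pfkp, the platelet phosphofructokinase (-0.04 ± 0.02), and Pfkfb3 (0.10 ± 0.05), each with an edgeR adjusted p of 1.00.

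Group medians of the 38 genes changed when these measures entered the fit. For CKD-vehicle against sham-vehicle the median log2 fold change was 0.19 with the 7SL share as covariate and 0.02 with the clock score. For CKD-Oxf against CKD-vehicle it was -0.10 and 0.17, and for Oxf averaged over surgery -0.005 and 0.13, against 0.31, -0.27 and -0.23 without a covariate. With the clock score, 27 of the 38 values were positive for CKD-Oxf against CKD-vehicle (5 without it) and 25 for Oxf averaged over surgery (6 without it). For sham-Oxf against sham-vehicle the median was 0.16 with the 7SL share and 0.11 with the clock score (-0.16 without), and for CKD-Oxf against sham-Oxf it was -0.09 and 0.09 (0.20 without). Surgery averaged over gavage had 0.07 and 0.04 (0.24 without), and the interaction -0.28 and 0.07 (-0.13 without). Since both measures differ between the groups, what belongs to group and what to the measure cannot be told apart in these fits.

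**Figure D5:**
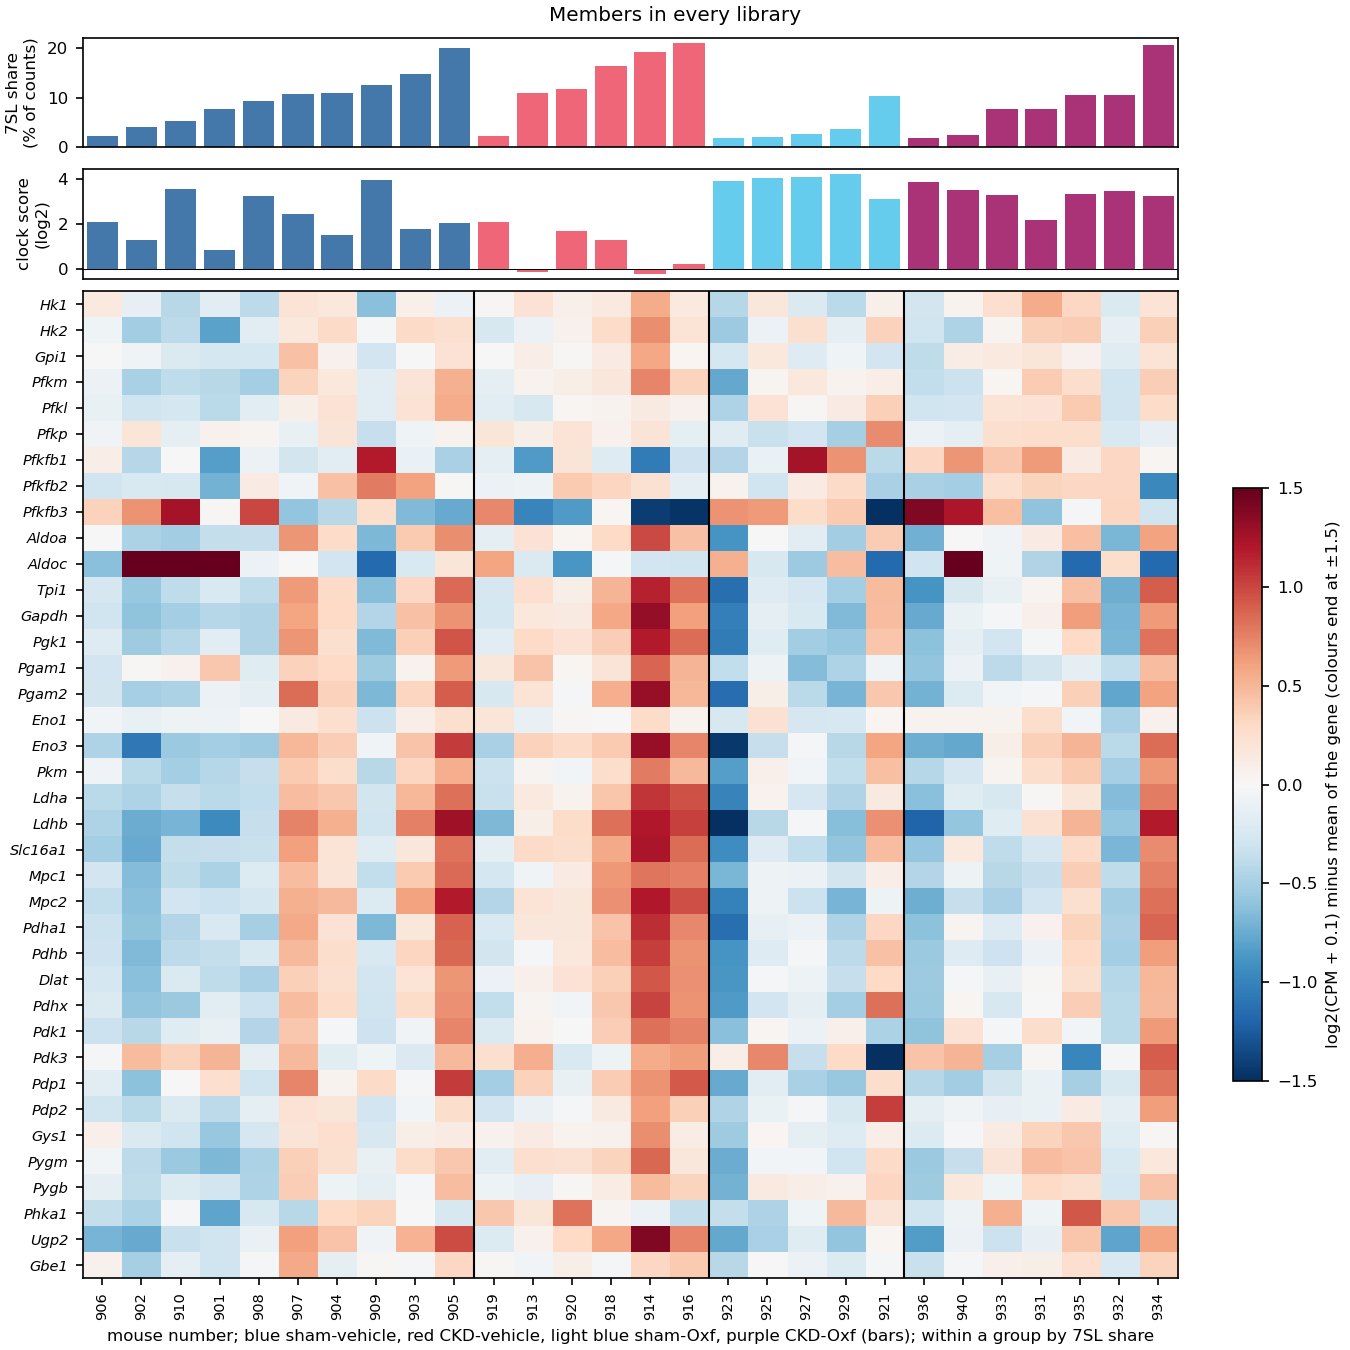
Log2 CPM of the 38 genes (rows) minus the mean of the gene in each of the 28 libraries (columns, by group and within a group by 7SL share), under bars of the 7SL share (% of counts) and the clock score (log2). Most rows turn from blue to red as the 7SL share rises within a group, and Pfkfb3 turns the other way.

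Skeletal muscle shares Eno3, Pygm and Pgam2 with the heart. The 11 skeletal muscle markers summed to 661 CPM in mouse 906 (sham-vehicle replicate 6) and 803 CPM in mouse 913 (CKD-vehicle replicate 1), 47.8 CPM in mouse 921 (sham-Oxf replicate 1) and 7.83 to 22.6 CPM in the other libraries. Of the 11 markers, 6 (Myh2, Myh4, Tnni2, Tnnc2, Mylpf and Pvalb) were at 0 in some library. Without mice 906 and 913, the log2 fold change of Eno3 for CKD-vehicle against sham-vehicle was 0.47 (0.48 with them), that of Pygm 0.37 (0.36 with them) and that of Pgam2 0.36 (0.35 with them). The calls of edgeR were also the same in number: 0 of the 38 for CKD-vehicle against sham-vehicle, and for Oxf averaged over surgery 1, Pgam1, beside 0% and 2.58% of all genes.

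Of 60 further genes of glucose uptake, glycolysis, pyruvate and glycogen handling in the table, 56 were tested, and 4 passed for Oxf averaged over surgery (1 higher and 3 lower) by edgeR, beside 2.81% of all genes. No other group comparison had a call among them. Ppp1r3c, a subunit that brings protein phosphatase 1 to glycogen, was at 34.2 to 85.6 CPM in CKD-vehicle and 20.7 to 46.7 CPM in CKD-Oxf, and its log2 fold change for Oxf averaged over surgery was -0.71 ± 0.17 (edgeR adjusted p 0.0349). Dld, the dihydrolipoamide dehydrogenase shared by the pyruvate dehydrogenase complex and others, was lower, at -0.81 ± 0.21 (edgeR adjusted p 0.0395). Gyg, the glycogenin that primes glycogen, was at -0.54 ± 0.15 (edgeR adjusted p 0.0453). Slc2a8, a glucose transporter, was higher, at 0.35 ± 0.10 (edgeR adjusted p 0.0472). It was at 6.16 to 9.44 CPM in sham-vehicle and 8.17 to 16.4 CPM in sham-Oxf. In CKD it was at 6.45 to 8.31 CPM with vehicle and 6.88 to 9.12 CPM with Oxf. The highest value was that of sham-Oxf replicate 1, the shallowest library. Without that library Slc2a8 was at 0.24 (edgeR adjusted p 0.0597). Leaving out the 28 libraries in turn, these calls held 17, 14, 10 and 9 times, in the same order. None passed with a covariate. With the clock score in the fit Ppp1r3c was at 0.04, Dld at -0.29, Gyg at -0.20 and Slc2a8 at 0.41, and with the 7SL share in it they were at -0.39, -0.34, -0.41 and 0.36.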

How the data were processed

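RNA sequencing of mouse ventricular myocardium was analysed from the raw counts per gene that the authors deposited as 1 table. FastQC 0.11.7, MultiQC 1.9, STAR 2.6.1d, Subread, featureCounts 1.6.3 and the build mm10 are named per the submitters' processing notes. The annotation, the use of strand and the treatment of reads that match several places are not given in the sources used here, so genes with antisense or overlapping partners and near-identical copies are uncertain. Of 45513 gene identifiers, 45465 were found in GENCODE M21 (GRCm38), which served for positions and lengths.

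Counts were scaled with TMM factors and tested with edgeR 4.0.16 in R 4.3.3 (robust quasi-likelihood F test). The fit had 1 mean per group and used all 28 libraries; filterByExpr with its minimum count at 10 kept 24273 genes. P-values were adjusted by Benjamini-Hochberg over all of them, and the threshold was 0.05. The procedure was tested on simulated counts, drawn independently for each gene and without a 7SL or clock pattern. How it fares with genes that move together was not tested. CPM denotes counts divided by the TMM-scaled library size and set to a common size. Replicate numbers follow accession order within a group, each replicate is 1 mouse, and 0 table columns lacked a sample. Full statistics were given for genes past the threshold and for the 3 smallest p in each comparison (for the 7SL slope, only the latter), and at most 8 further pathway genes past it. The 38 genes, the lists and the comparisons were chosen with earlier results of these data known. Alternatives were DESeq2 1.42.0, its size factors in edgeR, limma 3.58.1 voom with sample weights, no filter, a filter of 10 counts or more in each library, the 7SL share or clock score as covariate, and each library or mice 906 and 913 left out. Added after seeing the data were both covariates together, mice 906, 913 and 921 left out, the principal transcript length, the copies added to Pgam1 and Eno1, and the slopes on the 7SL share and clock score. Promoter sequences came from RefSeq (GRCm38.p6).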

Additional observations from a re-analysis of the deposited data

Results flagged for a closer look

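In each of the 4 groups, the highest and the lowest value of each of the 38 genes were compared with their nearest neighbour as a share of the range of the group. Of 152 comparisons 12 passed the 95% limit of Dixon, where about 7.6 are given by chance.

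CKD-vehicle replicate 2, which also had the highest cardiomyocyte marker sum (48078 CPM), stood above its group for Hk1 (gap 0.672 of the range), Gpi1, glucose 6-phosphate isomerase (0.821), and Gys1 (0.906). CKD-Oxf replicate 4, with a 7SL share of 20.6%, stood above its group for Pgam1 (0.606), Pdp1 (0.773) and Pdp2 (0.706). Sham-Oxf replicate 1, the shallowest library, stood above its group for Pfkp (0.814), Pdhx, a binding component of the pyruvate dehydrogenase complex (0.718), and Pdp2 (0.806). Sham-Oxf replicate 2 was the lowest for Pfkm (0.838). Sham-vehicle replicate 9 was the highest for Pfkfb1 (0.702), and CKD-Oxf replicate 7 for Aldoc (0.702), on very few counts.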

How the results depend on the processing

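The number of the 38 genes called stayed at 0 in all settings for CKD-vehicle against sham-vehicle, CKD-Oxf against sham-Oxf, the interaction, surgery averaged over gavage and the slope on mouse number. For CKD-Oxf against CKD-vehicle it was 9 with limma voom and 0 to 1 when a library was left out. For sham-Oxf against sham-vehicle it was 1 with the 7SL share and the clock score together. For Oxf averaged over surgery it was 3 with DESeq2, 2 with at least 10 counts in every library (beside 10.1% of all genes), 12 with limma voom (beside 22.0% of all genes), and 0 with no filter, with the clock score, with the 7SL share and with both as covariates. It ran from 0 to 7 when a library was left out. For the slope on the clock score it was 3 with DESeq2 and 3 with limma voom, and 0 to 1 when a library was left out. The cause of these moves was not tested.

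Among the genes with full statistics, the direction turned for Mpc2 in sham-Oxf against sham-vehicle (0.0087 with the 7SL share, 0.1171 with both covariates), and for Pdp1 (0.0029) and Pgam1 (0.0149) there with both. In CKD-Oxf against CKD-vehicle it turned for Pfkfb1 (-0.1552 with the clock score, -0.1551 with both) and Pgam1 (0.0014 with the clock score). It turned for Ppp1r3c with Oxf averaged over surgery (0.0391 with the clock score, 0.0805 with both) and for Pdp2 in the interaction without sham-Oxf replicate 1, where the values left out ran from -0.4511 to 0.0085. The cause was not tested. DESeq2 gave no adjusted p for Aldoc in some comparisons, and the stricter filter left 36 of the 38 genes. In the DESeq2 shares of all genes, any gene without an adjusted p counts as tested and not called. Depth limits Aldoc, which never exceeded 0.813 CPM. No paired analysis was possible because the groups share no mouse numbers in the labels.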
